A study of Mus musculus with 14 samples.

Results

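UDP-glucuronosyltransferases (UGTs) are enzymes of the endoplasmic reticulum that attach a sugar to small molecules. The 9 genes described here, Ugt1a1, Ugt1a2, Ugt1a6a, Ugt1a7c, Ugt1a9, Ugt1a10, Ugt2b38, Ugt3a1 and Ugt3a2, were picked by symbol from the 24411 gene symbols of a bulk RNA sequencing table. They were selected with their levels in these libraries already known, so their values are given as a description. Counts of members past the threshold of a fit over all genes stand beside the share of all genes called, and nothing is read from them. The kidneys came from male C57/B6 mice aged 8 weeks, taken at day 0 (4 libraries), day 1 (5 libraries) and day 3 (5 libraries) after renal ischemia/reperfusion injury (IRI), in which blood flow to the kidney is stopped and restored. In the names of the libraries the day 0 kidneys are called controls, and whether those mice had a sham operation is not given in the sources used here. The labels do not say that each library is a separate mouse, so the p-values below measure only the spread between these samples, which may be technical.

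In glucuronidation, a UGT transfers glucuronic acid from UDP-glucuronate to bilirubin, steroids, drugs and other lipophilic compounds, and the water-soluble product leaves the cell through export carriers. The Ugt1 locus makes its isoforms by joining alternative first exons, each with its own promoter, to 1 common set of later exons, so that the substrate-binding part varies and the part that binds the sugar donor is shared. Genes of the UGT2 family are separate genes in a cluster, UGT3 enzymes of humans prefer sugar donors other than UDP-glucuronate, and UGT8 transfers galactose to ceramide. The kidney, and within it the proximal tubule, is a known site of glucuronidation outside the liver.

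Per kilobase of sequence, the kidney at day 0 held mostly Ugt3a2 and Ugt2b38. From day 0 to day 3 the levels of Ugt3a1, Ugt3a2 and Ugt2b38 were 9.90-fold, 5.20-fold and 4.18-fold lower, and those of Ugt1a1 and Ugt1a2, whose day 0 means were below 1 CPM, 16.8-fold and 11.7-fold higher. Ugt1a7c was 1.17-fold lower over all day 3 libraries, which did not pass the threshold. It was 1.51-fold lower in those with 1-digit and 1.02-fold lower in those with 3-digit numbers. The day 0 and day 3 libraries of Ugt1a2 overlapped, and its log2 fold change went from 3.55 to 4.99 without day 0 replicate 4. For Ugt1a10 the fitted ratio was 3.39, these days overlapped as well and the threshold was not passed. CPM (counts per 1000000 reads on genes) were scaled between libraries by edgeR's trimmed mean of M-values (TMM). In bulk tissue, fewer cells of a type and less RNA per cell cannot be told apart.

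The 6 members of the Ugt1 locus overlap on chromosome 1 (plus strand, GRCm38, gene models of GENCODE M21), with Ugt1a10 at chr1:88055388-88219004, Ugt1a9 at chr1:88070800-88218997, Ugt1a7c at chr1:88095062-88220002, Ugt1a6a at chr1:88134809-88218997, Ugt1a2 at chr1:88200601-88218997 and Ugt1a1 at chr1:88211959-88218997. Their first exons are 879 to 954 bases long, and the 4 shared exons that follow sum to 1311 bases. The joints between first and second exon are shown because they mark where reads stop being specific to 1 gene. Each line holds the last 30 bases of a first exon in lower case and the first 30 bases of the shared second exon in capitals, 5′ to 3′, from the GRCm38 genome. The second exon starts at position 88215044, and the first exons end at 88212871 (Ugt1a1), 88201500 (Ugt1a2), 88139331 (Ugt1a6a), 88095978 (Ugt1a7c), 88071678 (Ugt1a9) and 88056336 (Ugt1a10).
Ugt1a1: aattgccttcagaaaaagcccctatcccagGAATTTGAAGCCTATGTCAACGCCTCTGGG
Ugt1a2: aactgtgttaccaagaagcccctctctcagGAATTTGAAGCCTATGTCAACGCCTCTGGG
Ugt1a6a: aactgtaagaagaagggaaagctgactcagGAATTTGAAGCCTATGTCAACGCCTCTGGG
Ugt1a7c: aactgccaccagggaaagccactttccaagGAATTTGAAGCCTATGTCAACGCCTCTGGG
Ugt1a9: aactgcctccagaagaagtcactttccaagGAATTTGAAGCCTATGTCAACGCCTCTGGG
Ugt1a10: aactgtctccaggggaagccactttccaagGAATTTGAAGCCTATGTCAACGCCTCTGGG

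The capitals are the same in the 6 genes and the lower-case ends all differ. A read that lies only in the shared exons fits every gene of the locus, and STAR sets such a read aside as ambiguous rather than counting it. Ambiguous reads over all genes made up 0.987% to 1.38% of the reads on genes and ambiguous reads of a library, and the files do not say how many of them came from the Ugt1 locus. For levels per kilobase, all counts of a Ugt1a gene were therefore divided by the length of its first exon. Reads on that exon were not counted apart. The first exon holds all bases of no other gene for Ugt1a1, Ugt1a2 and Ugt1a9 and 926 of 949 for Ugt1a10. In the gene models used here Ugt1a7c alone also has the last 998 bases of the locus (chr1:88219005-88220002), to which the shared 3′ end of any isoform could add reads. With the length of all 1915 bases that belong to no other gene, the day 0 level of Ugt1a7c was 119 ± 13.6 CPM per kilobase (SD, n = 4). With the first-exon length the same counts gave 250.02 ± 28.4, which overstates the level if reads fell on the other bases. Within the first exon of Ugt1a6a, 94.5% of 50-base windows occur in a transcript of another Ugt gene and 89.7% in Ugt1a7c models, so reads on it would mostly be ambiguous under those models. Only 95 of the 2142 exon bases that belong to Ugt1a6a alone lie in this first exon, and its level per kilobase is on a length that its reads may not rest on. The annotation the authors counted with is not given in the sources used here, and the Ugt1a6a counts are uncertain for this reason.

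The other 3 members are separate genes, with Ugt2b38 at chr5:87409942-87424203 on the minus strand, Ugt3a1 at chr15:9276888-9315032 and Ugt3a2 at chr15:9335550-9370955, both on the plus strand. Ugt3a1 and Ugt3a2 transcripts are 92% identical over their aligned bases, but no 100-base window is shared and 8.88% of the 50-base windows of Ugt3a1 are. Ugt2b38 is 95.7% identical to Ugt2b5 and 93.5% to Ugt2b37, and 24.2% of its 100-base windows occur in another Ugt gene, so reads could be lost or exchanged between these copies.

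Promoters of the members were read from RefSeq (GRCm38.p6), 250 bases before to 50 bases after the start of the gene, and 8 of the 9 members matched. The letters GCGTG, the core bound by the aryl hydrocarbon receptor, are in 32.4% of 32851 promoters of the same length and TGACNNNGC, the core of the antioxidant response element, in 12.4%, both strands searched. Neither occurred in the 8 member promoters within these 300 bases. Ugt3a2 was not in the promoter table. Among 12 promoters of other Ugt genes, 3 held GCGTG (Ugt1a5, Ugt1a8 and Ugt8a) and 0 held TGACNNNGC. A match is a string of letters and not a measured binding site, and no match says only that these letters are not in the window.

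Each library held 12485579 to 20476979 reads on genes. In the library names the numbers have either 1 digit or 3 digits, the labels do not say what this means, and it was handled here as a batch of unknown kind: replicates 1 and 2 of day 1 and replicates 1, 2 and 3 of day 3 have 3-digit numbers, and all others, day 0 included, have 1 digit. For 3-digit libraries a change from day 0 and the number format cannot be told apart. All 12 proximal tubule markers on a list drawn up for this work (Lrp2, Slc34a1, Kap and others) passed the filter on low counts, and their summed level at day 0 was 46873 to 50123 CPM, while 5 hepatocyte markers summed to 68.8 to 144 CPM. Of 14300 genes that passed the filter, edgeR's quasi-likelihood test with Benjamini-Hochberg adjustment called 42.1% between day 1 and day 0 (18.7% lower, 23.3% higher), 33.3% between day 3 and day 0 (13.8% lower, 19.5% higher) and 15.9% between day 3 and day 1 (7.39% lower, 8.52% higher).

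**Figure D1:**
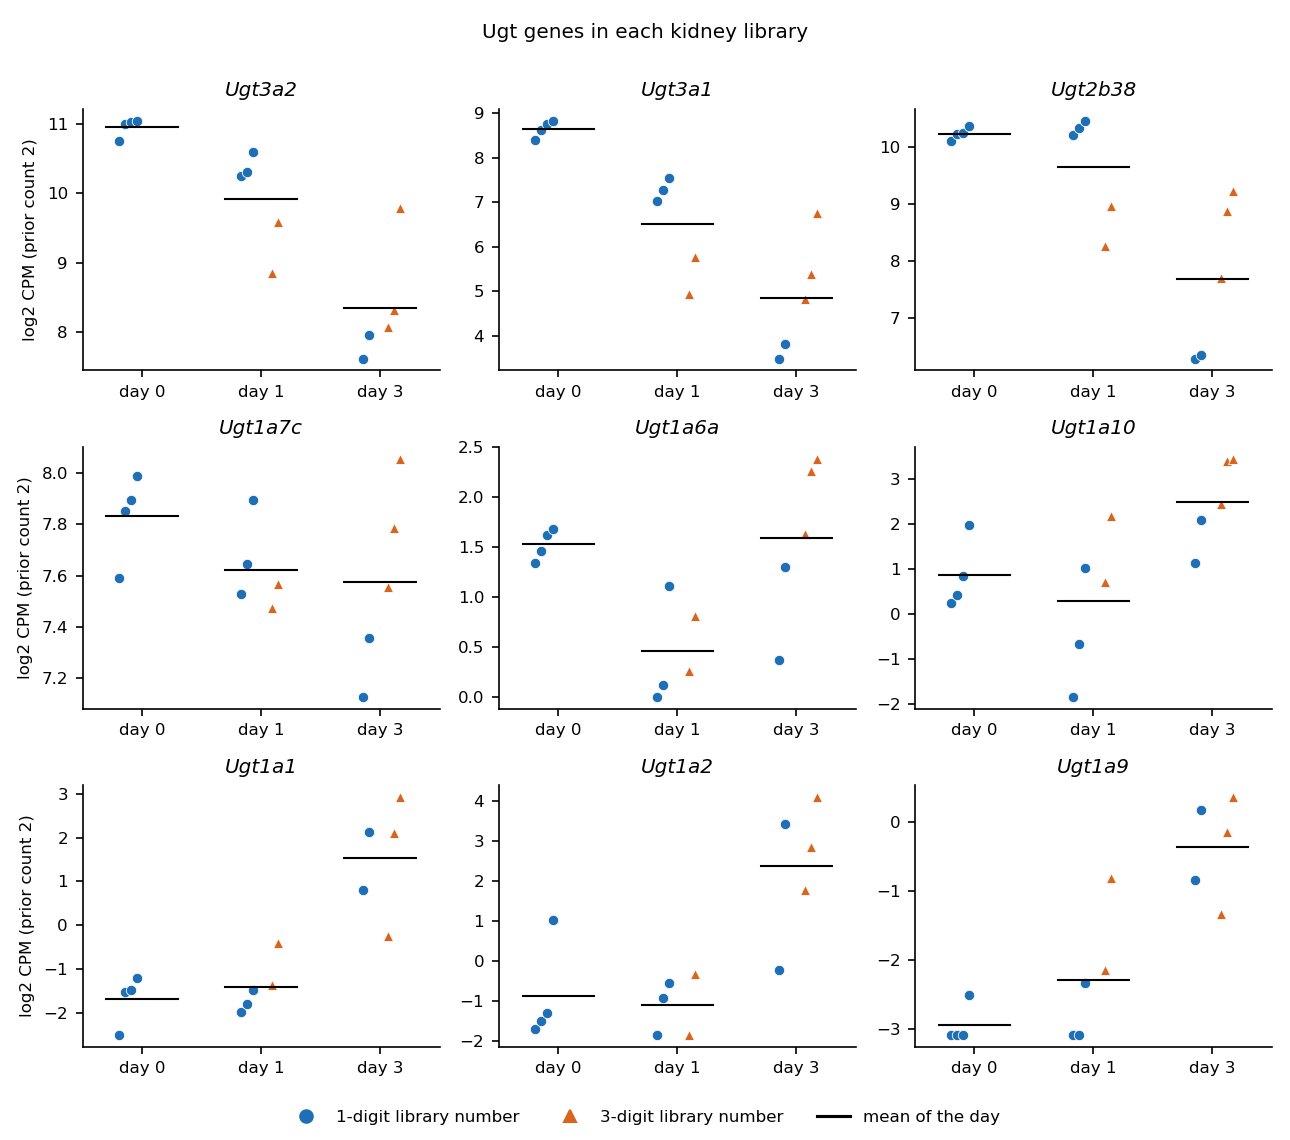
Log2 CPM (prior count 2) of the 9 members in each of the 14 libraries by day, with circles for 1-digit and triangles for 3-digit library numbers and a line at the mean of each day. Ugt3a1 and Ugt3a2 lie below all day 0 libraries at both later days, and Ugt1a1 lies above them in all 5 day 3 libraries.

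Ugt3a2, a UGT3 enzyme whose human counterpart transfers glucose, had the highest level per kilobase at day 0. Its 4 day 0 libraries were at 2044, 2108, 2089 and 1719.8 CPM. At day 1 it was at 769 and 459.8 CPM in the 3-digit libraries and at 1551, 1267 and 1220.3 CPM in the 1-digit libraries. All 5 day 1 libraries lay below every day 0 library, and the 3-digit libraries were the lowest of them. At day 3 Ugt3a2 was at 269, 880.4 and 319.8 CPM in the 3-digit libraries and at 197 and 249.5 CPM in the 1-digit libraries. Replicate 2 of day 3 stood above the other 4 and was still below day 0. The group means were 1990.2 ± 182 CPM at day 0 (SD, n = 4), 1053 ± 434 at day 1 (n = 5) and 383 ± 282 at day 3 (n = 5). The log2 fold change from day 0 was -0.92 ± 0.41 (SE) at day 1 and -2.38 ± 0.42 at day 3, the latter being -2.94 without day 3 replicate 2.

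Ugt3a1, the neighbour of Ugt3a2, has a human counterpart that transfers N-acetylglucosamine. It was at 394, 434, 455 and 338 CPM at day 0. At day 1 it was at 54.2 and 30.4 CPM in the 3-digit libraries and at 186, 129.6 and 154 CPM in the 1-digit libraries. Each day 1 library was below each day 0 library, with no overlap between the formats either. At day 3 the 3-digit libraries were at 28.6, 109 and 41.9 CPM and the 1-digit libraries at 11.2 and 13.96 CPM. The group means were 405 ± 51.6 CPM (SD, n = 4), 111 ± 66.4 (n = 5) and 40.9 ± 39.9 (n = 5). The log2 fold change from day 0 was -1.87 ± 0.60 (SE) at day 1 and -3.31 ± 0.63 at day 3, the lowest value of the 8 members tested, and it was -4.08 without day 3 replicate 2. The ratio of Ugt3a2 to Ugt3a1 in CPM was 4.59 to 5.19 in the day 0 libraries. It was 7.92 to 9.78 in the 1-digit and 14.2 to 15.1 in the 3-digit libraries of day 1, and 17.6 to 17.9 in the 1-digit and 7.63 to 9.40 in the 3-digit libraries of day 3. Every later library had a higher ratio than every day 0 library.

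Ugt2b38 belongs to the UGT2B cluster, whose enzymes conjugate steroids and other lipophilic compounds. At day 0 it was at 1212, 1327, 1103 and 1193 CPM. At day 1 the 3-digit libraries were at 499.9 and 307 CPM, below day 0, and the 1-digit libraries at 1409, 1294 and 1182 CPM, within or above the day 0 range. At day 3 all 5 libraries were below day 0, with 209.7, 604 and 471 CPM in the 3-digit and 82.0 and 78.5 CPM in the 1-digit libraries. The group means were 1209 ± 92.2 CPM (SD, n = 4), 938 ± 499 (n = 5) and 289 ± 237 (n = 5). The log2 fold change from day 0 was -0.37 ± 0.57 (SE) at day 1 and -2.06 ± 0.58 at day 3. The day 1 mean stood for libraries on both sides, at a log2 fold change of 0.10 in the 1-digit and -1.58 in the 3-digit libraries.

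Ugt1a7c, an isoform of the UGT1A7 to UGT1A10 group that conjugates phenolic compounds, held most of the counts of the Ugt1 locus. It was at 254, 231, 238 and 193 CPM at day 0, at 189.7 and 178 (3-digit) and 238, 200.2 and 184 CPM (1-digit) at day 1, and at 188, 266 and 221 (3-digit) and 164 and 139.9 CPM (1-digit) at day 3. The 3 days overlapped. The means were 229 ± 26.0 CPM (SD, n = 4), 198 ± 23.6 (n = 5) and 196 ± 49.3 (n = 5). The log2 fold change from day 0 was -0.21 ± 0.17 (SE, 95% interval -0.55 to 0.13) at day 1 and -0.23 ± 0.17 (-0.56 to 0.11) at day 3. Split by number format, it came to -0.14 for 1-digit and -0.32 for 3-digit libraries of day 1, and to -0.59 and -0.03 for those of day 3. Both 1-digit libraries of day 3 were below every day 0 library and below every 3-digit library of day 3.

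The low members of the locus, Ugt1a1, Ugt1a2, Ugt1a6a, Ugt1a9 and Ugt1a10, all had higher means at day 3 than at day 0 or day 1. For Ugt1a6a the means were 3.42 CPM per kilobase at day 3 and 2.91 at day 0, and these days overlapped. Ugt1a1, the isoform known to conjugate bilirubin, was at 0.0588 to 0.316 CPM at day 0 and 0.136 to 0.636 CPM at day 1. At day 3 it was at 4.17, 0.732 and 7.48 CPM in the 3-digit and 4.24 and 1.62 CPM in the 1-digit libraries. Each day 3 library was above each library of the other days. Its log2 fold change from day 0 was 0.50 ± 0.74 (SE) at day 1 and 4.07 ± 0.71 at day 3, from 1 to 5 counts per library at day 0. Without day 1 replicate 2 the day 1 value was -0.04, so its sign rested on that library.

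Ugt1a2 was at 0.288, 0.235, 0.19 and 1.94 CPM at day 0, at 0.161 to 0.681 CPM at day 1, and at 7.13, 3.32 and 17.1 (3-digit) and 10.8 and 0.735 CPM (1-digit) at day 3. Replicate 4 of day 0 was above replicate 5 of day 3, so these days overlapped, while day 1 and day 3 did not. Against day 0 the log2 fold change of Ugt1a2 was -0.69 ± 0.88 (SE) at day 1 and 3.55 ± 0.87 at day 3. Without day 0 replicate 4 these values were 0.76 and 4.99, so the day 1 value took its sign from that library.

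Ugt1a10 was at 1.06 to 3.79 CPM at day 0, 0.161 to 4.41 CPM at day 1 and 2.06 to 10.8 CPM at day 3. At day 3, 4 of the 5 libraries were above every day 0 library and the days overlapped. The log2 fold change from day 0 was -0.15 ± 0.71 (SE) at day 1 and 1.76 ± 0.72 at day 3, and neither passed the threshold. The day 1 value was 0.40 without day 0 replicate 3 and -0.89 without day 1 replicate 2, so its sign rested on single libraries. The day 3 value stayed between 1.47 and 2.31 and passed the threshold without day 1 replicate 2, day 1 replicate 5 or day 3 replicate 5. Ugt1a9, whose first exon is 91.7% identical to that of Ugt1a10, had 0, 1, 0 and 0 counts at day 0, 2, 10, 0, 0 and 1 counts at day 1 and 23, 5, 16, 15 and 6 counts at day 3. It did not pass the filter on low counts and has no fitted value, and each day 3 library was above each day 0 library, at 0.282 to 1.17 CPM.

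Ugt1a6a, an isoform for small planar phenols, was at 2.41 to 3.08 CPM at day 0 and at 0.885 to 2.04 CPM at day 1, where all 5 libraries were below day 0. At day 3 it was at 4.68, 2.98 and 5.10 CPM in the 3-digit and 2.35 and 1.18 CPM in the 1-digit libraries, with 2 libraries below and 2 above the whole day 0 range. Against day 0 its log2 fold change was -1.06 ± 0.39 (SE) at day 1 and 0.24 ± 0.38 at day 3. The day 1 value no longer passed the threshold in 7 of the 14 leave-outs. Without day 3 replicate 3 the day 3 value was -0.02, so its sign rested on that library. The near-identical Ugt1a6b, which is no member and whose first exon is 96.5% identical, had a log2 fold change of -1.40 ± 0.45 at day 3 (adjusted p = 0.0288, edgeR), with 0.605 to 2.20 CPM at that day and 2.12 to 3.93 CPM at day 0.

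Of the 8 members tested, 2 passed the threshold as lower and 0 as higher at day 1 against day 0, 3 as lower (Ugt2b38, Ugt3a1 and Ugt3a2) and 2 as higher (Ugt1a1 and Ugt1a2) at day 3 against day 0, and 1 as lower and 3 as higher at day 3 against day 1. These counts are given beside the shares of all genes called (42.1%, 33.3% and 15.9%) and nothing is read from them, since the members were selected on the same values. The groups did not overlap for 3 of 9 members between day 1 and day 0 (Ugt1a6a, Ugt3a1 and Ugt3a2) and for 5 of 9 between day 3 and day 0 (Ugt1a1, Ugt1a9, Ugt2b38, Ugt3a1 and Ugt3a2). Of the 14300 genes tested, the groups did not overlap for 42% and 33.4% in these comparisons. The median log2 fold change of the 8 was -0.53 at day 1 and 0.01 at day 3 against day 0, against 0.01 and 0.05 for all genes tested. The comparisons of day 1 and day 3 share the day 0 libraries.

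From day 1 to day 3, the log2 fold change was 3.57 ± 0.62 (SE) for Ugt1a1, 4.24 ± 0.84 for Ugt1a2, 1.92 ± 0.67 for Ugt1a10 and 1.30 ± 0.37 for Ugt1a6a. It was -1.46 ± 0.40 for Ugt3a2, -1.44 ± 0.58 for Ugt3a1, -1.70 ± 0.55 for Ugt2b38 and -0.02 ± 0.16 for Ugt1a7c. Day 1 and day 3 libraries were apart for Ugt1a1 and Ugt1a2 and overlapped for the other 7, while 7.61% of all genes tested did not overlap. Leaving out day 1 replicate 2 moved the Ugt1a10 value to 2.66, and leaving out day 3 replicate 2 moved the Ugt3a1 value to -2.21. The threshold was no longer passed in 6 of the 14 leave-outs for Ugt3a2 and in 5 for Ugt1a6a.

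**Figure D2:**
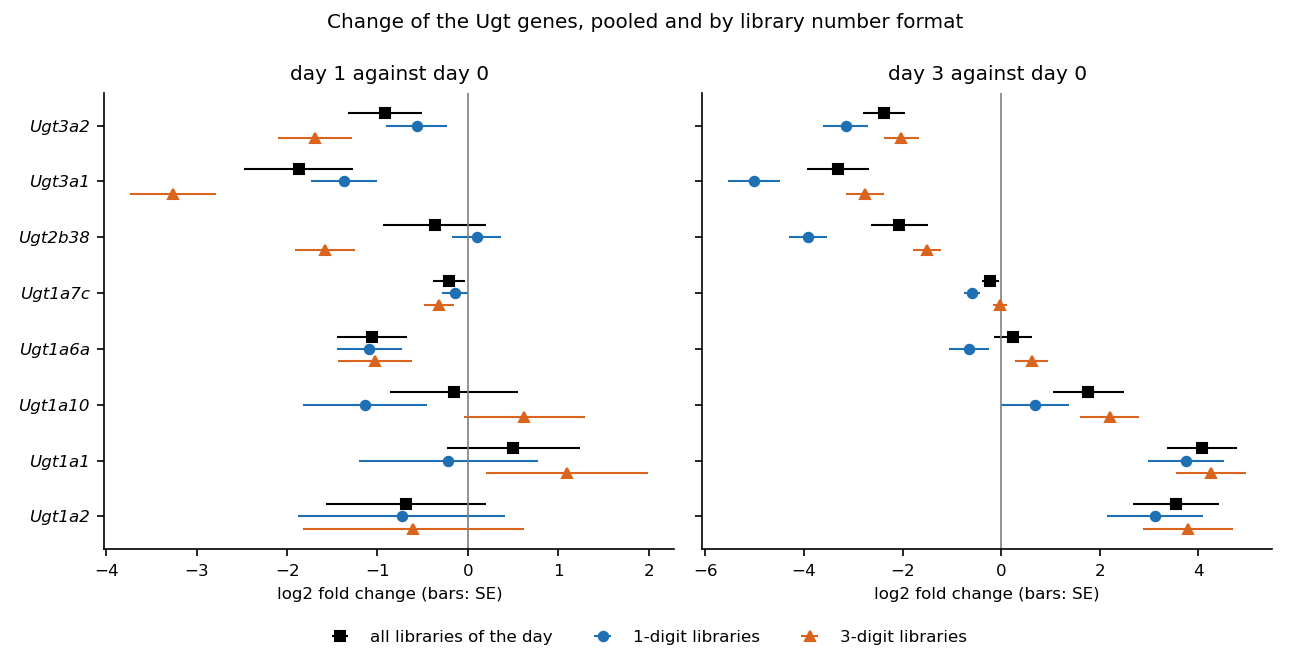
Log2 fold change of the 8 fitted members against day 0 over all libraries of a day (squares), in 1-digit libraries (circles) and in 3-digit libraries (triangles), with bars of 1 SE on each side. Ugt3a1 is below 0 at both days and in both formats (-1.37 and -3.26 at day 1, -5.01 and -2.76 at day 3), and Ugt1a1 and Ugt1a2 are above 3 at day 3 in both.

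The 3 members that were lower at day 3 were below day 0 in libraries of both number formats. Day 0 has 1-digit libraries only, so for the 3-digit libraries the change and the format cannot be told apart. Against day 0, the log2 fold change of Ugt3a2 at day 3 was -3.16 in the 1-digit and -2.02 in the 3-digit libraries, that of Ugt2b38 was -3.91 and -1.50, and that of Ugt3a1 was -5.01 and -2.76. At day 1 the order of the formats was the opposite, with -0.56 in the 1-digit and -1.70 in the 3-digit libraries for Ugt3a2 and -1.37 and -3.26 for Ugt3a1. At day 3 Ugt1a1 was at 3.76 and 4.25 and Ugt1a2 at 3.11 and 3.78. Ugt1a10 was at 0.68 in the 1-digit libraries, which overlapped day 0, and at 2.20 in the 3-digit libraries. Ugt1a6a was at -0.65 in the 1-digit and 0.62 in the 3-digit libraries of day 3, so its direction differed between formats there. With the number format as a term in the fit, the day 3 value of Ugt1a10 was 0.61 and that of Ugt1a6a -0.26, and 2 members passed at day 1 (55.9% of all genes) and 5 at day 3 (48.2%).

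Set directly against the 1-digit libraries of the same day, the 3-digit libraries were lower for Ugt2b38 (-1.68), Ugt3a1 (-1.89) and Ugt3a2 (-1.13) at day 1 and higher for the same 3 genes at day 3 (2.41, 2.25 and 1.13, all log2). For these 3 genes the formats did not overlap at either day, as for 60.7% of all genes tested at day 1 and 41.4% at day 3. Without day 3 replicate 2 the day 3 differences were 1.49 for Ugt3a1 and 0.40 for Ugt3a2. Of the 8 members, 3 passed the threshold as lower (Ugt2b38, Ugt3a1 and Ugt3a2) and 0 as higher at day 1, where 35% of all genes were called (16.4% lower, 18.6% higher), and 3 as higher (Ugt2b38, Ugt3a1 and Ugt1a7c) and 0 as lower at day 3, where 18.5% were (8.22% lower, 10.3% higher). At day 3 Ugt1a7c was 0.57 higher on the log2 scale in the 3-digit libraries, with no overlap, and Ugt3a2 did not pass. The member median was -0.05 at day 1 and 1.20 at day 3, against 0.03 and 0.01 for all genes. The day 1 count was 0 without day 1 replicate 2, where the number of all genes called went from 5001 to 1997. The day 3 count was 0 without day 3 replicate 5, where all genes called went from 2645 to 91. The difference between the formats itself differed between day 3 and day 1 in 17.6% of all genes tested. The part of the format in the changes from day 0 was not tested.

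The 12 proximal tubule markers summed to 20358 to 31334 CPM in 3-digit and 38018 to 49895 CPM in the 1-digit day 1 libraries, and to 11804 to 22872 CPM in the 3-digit and 10277 to 13088 CPM in those of day 3 with 1 digit, where the formats overlapped. In 3-digit against 1-digit libraries, 6 of the 12 were called lower at day 1 and 6 higher at day 3, with median log2 differences of -1.17 and 1.46. Against day 0, 5 of the 12 were called lower at day 1 and 7 at day 3, none higher, with median log2 fold changes of -0.95 and -1.50 and no marker at 0 in any group. Of 9 markers of injured tubule, 8 were called higher at day 1 (all but Vcam1) and 8 at day 3 (all but Havcr1), and their sum went from 1198 to 1518 CPM at day 0 to 8290 to 36521 at day 1 and 6341 to 43759 at day 3. Across the 14 libraries, the correlation r of log2 CPM with the mean log2 CPM of the proximal tubule list was 0.95 for Ugt3a1, 0.90 for Ugt2b38, 0.89 for Ugt3a2 and 0.84 for Ugt1a7c. It was 0.28 for Ugt1a6a, -0.28 for Ugt1a10, -0.32 for Ugt1a2, -0.62 for Ugt1a1 and -0.73 for Ugt1a9. The 14 points share the days and the library scaling, and the part of the tubule markers in the members' levels was not tested.

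**Figure D3:**
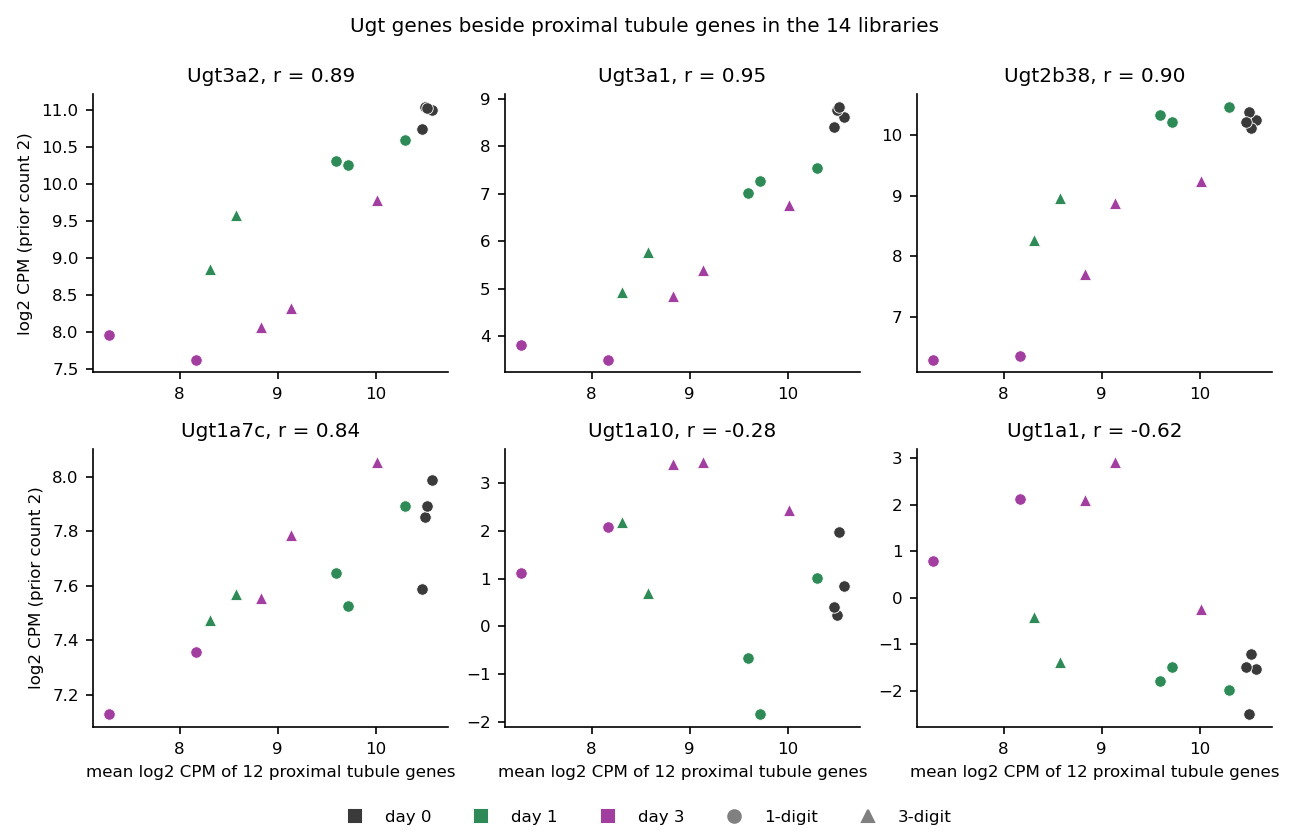
Log2 CPM of 6 members against the mean log2 CPM of the 12 proximal tubule markers in the 14 libraries, coloured by day and with the number format as marker shape. The 4 abundant members follow the markers (r of 0.84 to 0.95), whereas Ugt1a10 and Ugt1a1 have r of -0.28 and -0.62.

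Markers of other cells of the kidney and of nearby tissue were summed in the same way. Of all genes tested, 42.1% were called at day 1 and 33.3% at day 3 against day 0. The 7 urothelium markers summed to 4.06 to 82.6 CPM at day 0, 5.38 to 121 at day 1 and 3.89 to 53.0 at day 3, with 0 called higher and 1 lower at day 3. By format, they summed to 20.3 to 121 CPM in 3-digit and 5.38 to 10.4 CPM in 1-digit libraries of day 1, where Upk1b, Krt5 and Trp63 were called higher in the 3-digit libraries (5.28, 5.16 and 3.45 on the log2 scale, adjusted p = 0.0313, 0.0208 and 0.00419), and none of the 7 was called between the formats at day 3. The 5 hepatocyte markers summed to 20.6 to 236 CPM at day 1 and 38.9 to 105 CPM at day 3, with 1 of the 3 tested lower at day 3 and Serpina3k at 0 in all day 0 libraries. By format, the hepatocyte sum was 155 to 236 CPM in 1-digit and 20.6 to 62.6 CPM in 3-digit libraries of day 1, and 53.5 to 105 and 38.9 to 87.6 CPM at day 3. Albumin, Alb, was lower in 3-digit than in 1-digit libraries at both days (-2.92, adjusted p = 0.000115, and -2.77, adjusted p = 0.000934). Against day 0 it was higher in the 1-digit libraries (2.46 at day 1 and 1.57 at day 3) and at -0.46 and -1.19 in the 3-digit libraries, the last of which was called lower. The other tested markers, Ttr and Apoa2, were at 0.73 and 1.15 in the 1-digit libraries of day 1 and at -0.59 and -1.37 in those of day 3, none of them called. In the 3-digit libraries they were at -1.38 (called lower) and -1.29 at day 1 and at -0.85 and -2.69 (called lower) at day 3. Set against the 1-digit libraries, both were called lower in the 3-digit libraries of day 1 (-2.11 and -2.45) and neither in those of day 3. The 8 leukocyte markers summed to 31.1 to 84.3 CPM at day 0, 61.9 to 198 at day 1 and 121 to 408 at day 3. Of the 6 leukocyte markers tested, 3 were called higher at day 1 (Cd68, S100a8 and S100a9, at 3.57, 6.55 and 6.64) and 4 at day 3. The other 3 were at -0.28 (Ptprc), -1.42 (Lyz2) and -2.04 (Adgre1) at day 1, and in the 1-digit libraries of that day Lyz2 and Adgre1 were called lower (-2.54 and -3.64). At day 3 Lyz2 was also called higher (2.00), at 0.09 in the 1-digit and 2.58 in the 3-digit libraries. Ptprc (0.40) and Adgre1 (-0.31) were not called at day 3. In its 1-digit libraries they were at -0.07 and -3.22, the latter called lower, and in its 3-digit libraries at 0.65, called higher, and 0.34. The 8 collecting duct markers summed to 799 to 1087 CPM at day 0, 571 to 844 at day 1 and 346 to 732 at day 3, with 1 called lower at day 1 (Slc4a1, at -2.995) and 4 at day 3. The 6 markers of thick limb and distal tubule summed to 6812 to 9426 CPM at day 0, 3338 to 6053 at day 1 (3 called lower, Umod, Slc12a1 and Calb1) and 2155 to 3293 at day 3 (5 called lower). The 7 of endothelium and stroma summed to 173 to 203 CPM, 297 to 415 CPM (3 called higher, Cdh5, Pdgfrb and Acta2) and 244 to 835 CPM (4 called higher, Pdgfrb, Pdgfra, Col1a1 and Acta2). The endothelial Pecam1, Cdh5 and Kdr were not called at day 3 (0.67, 0.34 and 0.13). They were at 1.26, 0.75 and 0.76 in its 1-digit libraries, each called higher, and at 0.08, -0.01 and -0.51 in its 3-digit libraries, none called. The part of these cells in the members' levels was not tested.

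Between members, r over the 14 libraries was 0.97 for Ugt3a1 with Ugt3a2, 0.93 for Ugt2b38 with each of them, 0.91 for Ugt1a1 with Ugt1a9 and 0.87 for Ugt1a1 with Ugt1a2. Among 10977 genes at a mean of at least 5 CPM outside the family, the 3 genes most like Ugt3a2 were Acsm2 (r = 0.98), an acyl-CoA synthetase, Oxct1 (0.97), an enzyme of ketone body use, and H2-Eb1 (0.97), a class II histocompatibility chain. Those most like Ugt2b38 were Slc22a30 (0.99) and Slc22a28 (0.98), of the organic anion transporter family, and Ggt1 (0.97), a brush border transpeptidase. For Ugt3a1 they were Egf (0.99), a growth factor made in the distal nephron, Eci3 (0.98), an enoyl-CoA isomerase, and Slc7a13 (0.98), an amino acid transporter. For Ugt1a7c they were Ppp2r5e (0.96), a phosphatase subunit, Myh14 (0.94), a nonmuscle myosin, and Lrrc3 (0.92). Slc22a30 and Slc7a13 are also on the proximal tubule list.

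Per kilobase, the order at day 0 was Ugt3a2 (855 ± 78.3 CPM per kilobase, SD, n = 4), Ugt2b38 (639 ± 48.7), Ugt1a7c (250.02 ± 28.4) and Ugt3a1 (181 ± 23.0), and no neighbouring pair of these overlapped. With the 1915-base length for Ugt1a7c its value (119) fell below Ugt3a1. The other 5 members followed at 2.91 (Ugt1a6a), 2.09 (Ugt1a10), 0.735 (Ugt1a2), 0.232 (Ugt1a1) and 0.0167 (Ugt1a9) CPM per kilobase, each overlapping the next. Over its 2142 bases of no other gene, a length also tried after seeing the data, Ugt1a6a was at 1.30 ± 0.143 CPM per kilobase and came after Ugt1a10. At day 3 the order was Ugt1a7c (214 ± 53.9, n = 5), Ugt3a2 (164 ± 121), Ugt2b38 (153 ± 126) and Ugt3a1 (18.2 ± 17.8), then Ugt1a2 (8.67), Ugt1a10 (7.06), Ugt1a1 (3.99), Ugt1a6a (3.42) and Ugt1a9 (0.84), and every neighbouring pair overlapped. With the 1915-base length Ugt1a7c was at 102 ± 25.8 at day 3 and came after Ugt3a2 and Ugt2b38. At day 1 Ugt2b38 (496 ± 264) and Ugt3a2 (452 ± 186) were first and overlapped, and Ugt1a7c (216 ± 25.8) and Ugt3a1 (49.4 ± 29.6) followed.

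All Ugt genes of the table together summed to 4372 ± 411 CPM at day 0 (SD, n = 4), 2619 ± 1102 at day 1 and 1135 ± 699.6 at day 3 (n = 5 each). Ugt2b38, Ugt3a1 and Ugt3a2 together went from 3604 ± 258 to 2103 ± 994 and 713 ± 536 CPM. The Ugt1 locus members were at 237 ± 24.9, 203 ± 24.2 and 219 ± 54.7 CPM, and without Ugt1a7c at 8.44 ± 2.12, 5.41 ± 2.33 and 23.1 ± 13.5 CPM. As a share of the level per kilobase of all Ugt genes, Ugt3a2 went from 39.7% at day 0 to 32.9% at day 1 and 24.7% at day 3, Ugt3a1 from 8.38% to 3.33% and 2.38%, and Ugt2b38 from 29.9% to 34.2% and 20.6%. The share of Ugt1a7c went from 11.6% to 18.1% and 36.9% (24.1% to 46.7% in the day 3 libraries). With the 1915-base length, a choice made after seeing the data, these shares were 5.90%, 9.72% and 22.1% (13.2% to 29.5% in the day 3 libraries).

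**Figure D4:**
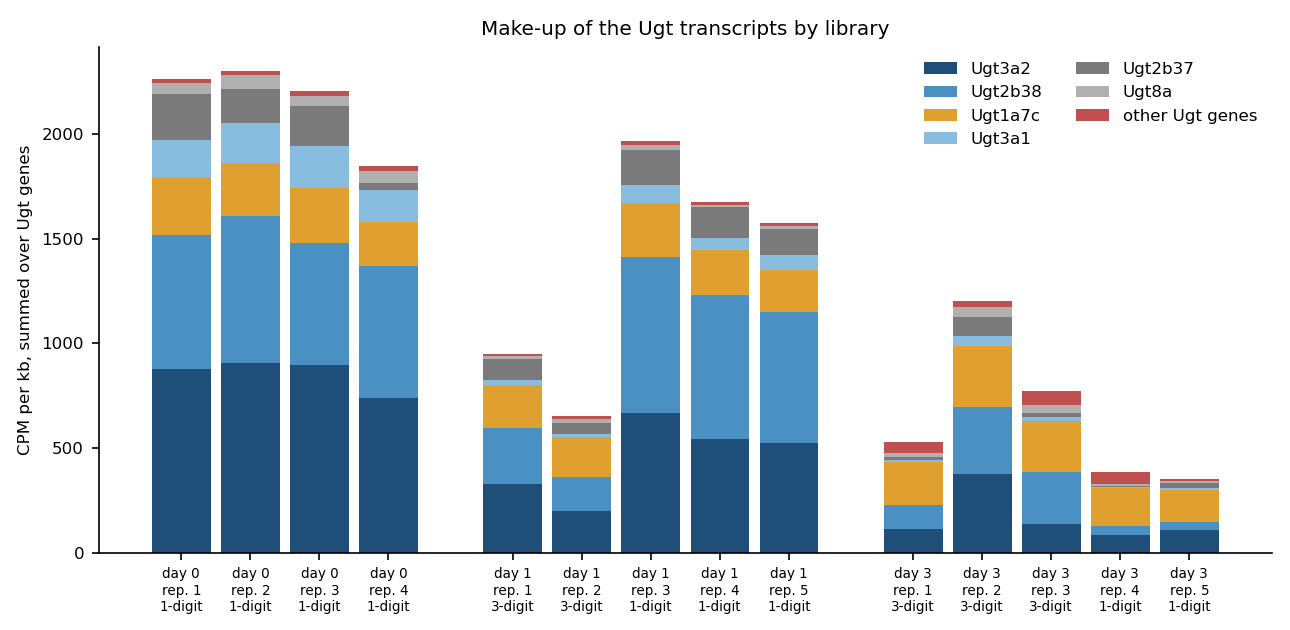
CPM per kilobase of Ugt3a2, Ugt2b38, Ugt1a7c (all its counts divided by the first-exon length), Ugt3a1, Ugt2b37, Ugt8a and all other Ugt genes, stacked in 1 bar for every library. The bars shorten from day 0 to day 3 and the mean share of the Ugt1a7c segment goes from 11.6% to 36.9% at the first-exon length used here.

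Of the 13 other Ugt genes looked for, 12 are in the table and 6 passed the filter. None was called higher at day 1 or day 3 against day 0, 1 was called lower at day 1 and 3 at day 3, with median log2 fold changes of -0.67 and -1.27. Of all genes tested, 18.7% were called lower at day 1 and 13.8% at day 3. Ugt8a, the ceramide galactosyltransferase, went from 211 CPM at day 0 to 68.2 at day 1 and 95.5 at day 3 (log2 fold change -1.63 ± 0.42, adjusted p = 0.00748, and -1.14 ± 0.42, adjusted p = 0.0487, edgeR). Ugt2b37 went from 287 to 222 and 57.5 CPM, lower at day 3 (-2.32 ± 0.66, adjusted p = 0.0164), although day 0 replicate 4 was at 68.6 CPM and the other 3 at 304 to 416. Ugt2b34, another gene of the UGT2B cluster, did not pass the test (0.78 ± 0.42 at day 3, adjusted p = 0.168). Ugt2b5 and Ugt2a3 did not pass either at day 3 (adjusted p = 0.751 and 0.0517), and Ugt2a1 and Ugt2a2 had 0 counts in all 14 libraries. None of the 6 was called between day 3 and day 1.

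The lists of other genes of the pathway were drawn up by function with earlier results of these data known, and the genes named are the most abundant of each list and those that passed the test, the latter named after their values were seen. All adjusted p-values are from edgeR's quasi-likelihood test over 14300 genes. Against day 0 it called 42.1% of all genes at day 1 (18.7% lower, 23.3% higher) and 33.3% at day 3 (13.8% lower, 19.5% higher). Nothing is read from the counts per list given below. Of 8 tested genes on the path from glucose to UDP-glucuronate and of its transport, 2 rose at both days and 1 fell at day 3, with median log2 fold changes of 0.24 and -0.05. The 2 that rose were hexokinase 2, Hk2 (3.54, adjusted p = 0.000152, and 2.88, adjusted p = 0.000767, from 0.703 CPM at day 0), and the phosphoglucomutase Pgm1 (1.99 and 1.16). Hexokinase 1, Hk1, fell at day 3 (-0.44, adjusted p = 0.0484). Ugdh, which makes UDP-glucuronate itself, had log2 fold changes of 0.69 (adjusted p = 0.0974) and 0.23 (adjusted p = 0.593), and Ugp2, which makes UDP-glucose, of 0.07 and -0.22 (adjusted p = 0.753 and 0.338).

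Of 8 genes that release or break down glucuronate, 2 fell at day 1 and 3 at day 3, and none rose (medians -0.61 and -0.79). Sord, sorbitol dehydrogenase, fell at both days (-1.36, adjusted p = 0.0309, and -1.27, adjusted p = 0.04997, just under the threshold), as did the xylulokinase Xylb (-1.01 and -0.89). Gusb, the glucuronidase that removes glucuronic acid again, fell at day 3 (-2.46, adjusted p = 0.00109), with 123 to 821 CPM in the day 0 and 54.3 to 65.5 CPM in the day 3 libraries. Miox, the kidney enzyme that opens the inositol ring to glucuronate, was at -0.97 and -1.73 (adjusted p = 0.293 and 0.0822), and the reductase Akr1a1 at -0.13 and -0.68 (adjusted p = 0.735 and 0.0753).

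Of 8 tested genes of sulfation, the other main conjugation of phenols and steroids, 2 fell and 1 rose at day 1 and 3 fell and 1 rose at day 3 (medians -0.62 and -0.38). The sulfate donor synthases fell at both days, Papss2 by 1.56 (adjusted p = 0.00211) and 0.98 (adjusted p = 0.0316) and Papss1 by 1.04 and 0.97 on the log2 scale. Sult1c2 fell at day 3 (-1.31, adjusted p = 0.0199), and Sult1d1 had -0.75 at day 1 (adjusted p = 0.0545). Sult1e1, the estrogen sulfotransferase, was at 0 to 0.0605 CPM at day 0, 3.13 to 44.1 at day 1 and 0.0563 to 36.1 at day 3, and was called higher at both days. Of 13 tested genes of other conjugations and detoxification, Tpmt fell at both days, Nat8 fell at day 3 and Nqo1 rose at day 3 (1.91, adjusted p = 0.0341), with medians of -0.26 and 0.15. The abundant Gstm1, Glyat and Ephx2 did not pass at either day.

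Of 9 tested regulators of UGT genes, 2 fell at day 1 and 2 rose at day 3 (medians -0.16 and 0.21). Hnf4a, a liver and proximal tubule factor, fell at day 1 (-1.02, adjusted p = 0.00133) and was at -0.53 at day 3 (adjusted p = 0.0518), and the glucocorticoid receptor Nr3c1 fell at day 1. Nr1h4, the bile acid receptor, was at 0.27 and 0.49 (adjusted p = 0.4003 and 0.1504). The receptors Ppara (1.19, adjusted p = 0.0242) and Nr1i2 (1.27, adjusted p = 0.00173) rose at day 3. Ahr, the receptor of dioxin and related ligands, was at -0.36 and -0.47 (adjusted p = 0.16 and 0.0841). Of 5 export carriers of glucuronides, none was called at day 1 and 2 rose at day 3, Abcc2 (1.35, adjusted p = 0.00142) and Abcc4 (0.85, adjusted p = 0.0101), while the abundant Abcg2 was at 0.50 (adjusted p = 0.182).

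**Figure D5:**
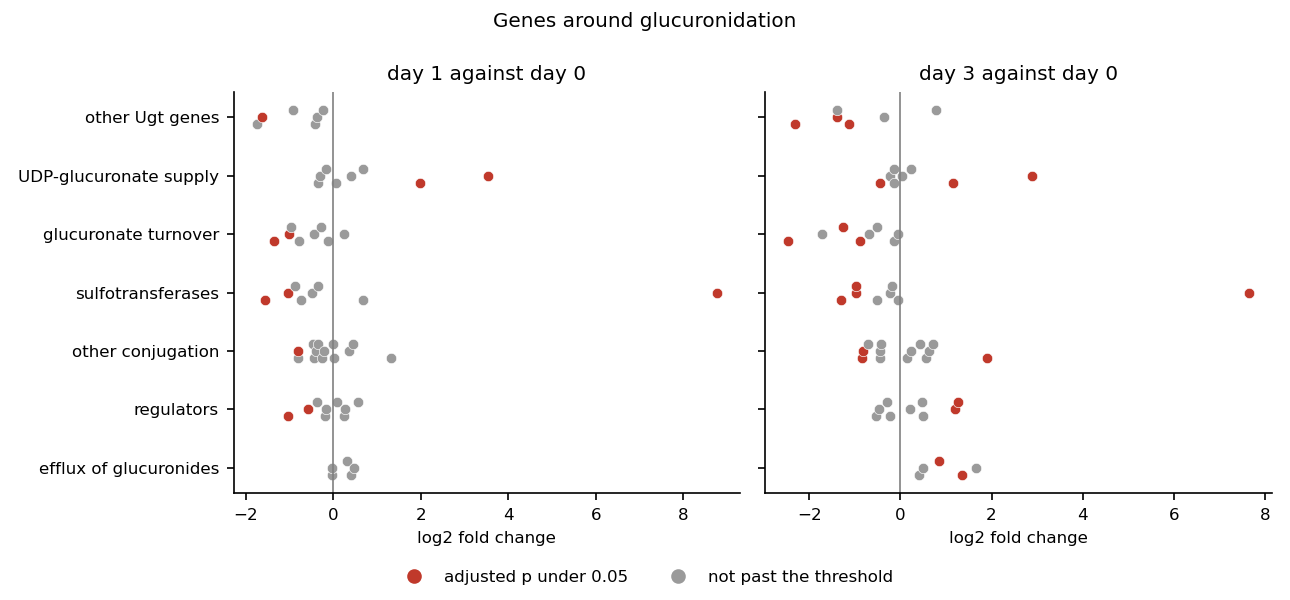
Log2 fold change against day 0 of each tested gene of the other Ugt genes and the 6 pathway lists at day 1 and day 3, 1 point for each gene, red where the adjusted p was under 0.05 and grey otherwise. The point far to the right in the sulfotransferase row is Sult1e1, whose fitted fold depends on day 0 values at or near 0 CPM, and the export carriers lie at or above 0 at day 3 with 2 of 5 past the threshold. Of all genes tested, 33.3% were past it at day 3.

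The day 3 libraries were also split by format and each part set against day 0, which has 1-digit libraries only. The list medians were -1.06 in 1-digit and -0.63 in 3-digit libraries for glucuronate turnover and -0.39 and -0.53 for sulfation. They were 1.09 and 0.70 for the carriers, and -1.81 and -0.89 for the other Ugt genes. For the supply of UDP-glucuronate they were 0.00 and -0.20, for the regulators 0.22 and 0.21 and for other conjugation -0.52 and -0.07. The median of other conjugation was thus below 0 in each format and above 0 (0.15) over all day 3 libraries.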

How the data were processed

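Total RNA of whole kidneys was extracted with TRIzol and made into libraries with an Illumina TruSeq kit, per the labels. The submitters' processing notes name Trimmomatic, STAR and the mm10 build, while tool versions and the annotation used are not given in the sources used here. The authors deposited STAR's counts of uniquely mapped reads per gene symbol for each library, not normalized, and reads that fit more than 1 gene are left out of those counts. The column of the strand opposite to the read was used, which held 98.5% to 98.7% of strand-assigned reads. Rows that name no gene (29.0% to 38.3% of reads) entered neither library sizes nor tests.

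In R 4.3.3, counts were filtered by edgeR 4.0.16 (filterByExpr by day, minimum count 10), scaled by TMM, and fitted over all 14 libraries by the quasi-likelihood test with 1 term for each day, or for each day and number format. An adjusted p (Benjamini-Hochberg over 14300 genes) under 0.05 was called. The F value of each test gave the standard error, and a prior count of 2 was added for log2 CPM. Scripts were tested on simulated data. Replicates differed by a chi-square of 5.69 to 228 per degree of freedom, so none was counted as a repeat. Lengths and coordinates came from GENCODE M21 on GRCm38, in which 95.8% of the symbols were found, and figures were drawn with matplotlib 3.10.9.

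The members and gene lists were chosen with earlier results of these data known. All 9 members are given, other Ugt genes from a mean of 1 CPM, from each list up to 3 genes of highest mean CPM, and for the 4 most abundant members the 3 genes of highest Pearson r. Alternatives were the unstranded column, other size factors, total counts, all genes without a filter, a minimum of 10 counts per library, DESeq2 1.42.0, fits to only the 2 days compared, a block for the replicate number, 1 number format only, the number format as a term, a prior count of 0.5, and leaving out each library in turn. Some regulators of UGT genes are not reported here.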

Additional observations from a re-analysis of the deposited data

Results flagged for a closer look

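In 5 of 45 groups of libraries looked at (15 Ugt genes at 3 days), 1 library stood far from the rest, measured as its gap to the nearest library over the range of the group, and chance would do so in about 1 in 20 groups. In 1 of the 5 a single read sets the value by construction, which leaves 4 of 44 groups with reads in more than 1 library. Ugt1a2 in day 0 replicate 4 was high (gap over range 0.854, 1.94 CPM against 0.288 for the next). Ugt3a2 in the same library was low (0.848, 1719.8 against 2044 CPM), and Ugt1a9 in day 0 replicate 2 had the only read of its group (1.0), which says nothing about that library. Ugt1a6b was high in day 3 replicate 2 (0.714, 2.20 against 0.891 CPM), and Ugt2b5 was at 0 in day 3 replicate 5 (0.907), with 4.28 CPM in the next library.

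The difference between 3-digit and 1-digit libraries went in opposite directions at day 1 and day 3 for 3 members, with every library of a format on 1 side of the other format. At day 3 less at day 1 it was 4.10 for Ugt2b38, 4.14 for Ugt3a1 and 2.26 for Ugt3a2 on the log2 scale, and since the members were chosen on these values the difference was not tested. Without day 3 replicate 2 the day 3 part of it went from 2.25 to 1.49 for Ugt3a1 and from 1.13 to 0.40 for Ugt3a2. Among 36 other Ugt and pathway genes (the abundant ones, those called against day 0, and Ahr), the same difference passed edgeR's quasi-likelihood test in 10 (17.6% of all genes tested passed it), over 3 and 2 libraries of day 1 and 2 and 3 of day 3. It was 4.59 for Miox (adjusted p = 0.00787), 2.78 for Sord (adjusted p = 0.00519), 2.36 for Ugt1a6b (adjusted p = 0.0337) and 1.92 for Sult1c2 (adjusted p = 0.0418). It was 1.53 for Akr1a1 (adjusted p = 0.00681), 1.18 for Glyat (adjusted p = 0.0377), -1.83 for Ugdh (adjusted p = 0.00509) and -1.19 for Abcg2 (adjusted p = 0.018). It was -2.89 for Nqo1 (adjusted p = 0.019) and -6.31 for Sult1e1 (adjusted p = 0.0283), which lay between 0.0563 and 36.1 CPM in the day 3 libraries.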

How the results depend on the processing

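Of 343 fold changes of members recomputed under the alternatives other than leaving out a library, 332 had the same sign, and none that had passed the threshold turned its sign. The number of members past the threshold moved by over 1.5 times as follows, with the share of all genes called in brackets. For day 3 against day 0 it was 5 (33.3%), and 3 (32.2%) with at least 10 counts in every library, which left 5 members tested. For day 3 against day 1 it was 4 (15.9%), and 2 (17%) with at least 10 counts, 7 (23.1%) with DESeq2's Wald test and 2 (6.02%) with only the 2 days compared. For day 1 against day 0 it was 2 (42.1%), and 5 (42.9%) when libraries of the later days with 1-digit numbers were left out. For the formats at day 3 it was 3 (18.5%), and 5 (24.7%) with DESeq2. The number of all genes called also moved by over 1.5 times with only 1-digit libraries of the later days, to 56.3% (day 3 with day 0) and 36% (day 3 with day 1). With the number format as a term, 5 members passed between day 3 and day 1 (19.7%). The cause was not tested beyond the smaller number of genes or samples.

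Leaving out 1 library gave 1 to 3 members for day 1 against day 0 (32.9% to 45.9% of all genes), 5 to 6 for day 3 against day 0 (23% to 39.7%) and 2 to 7 for day 3 against day 1 (8.9% to 23.5%). The 7 were reached without day 1 replicate 2, where the share of all genes was also highest, and the 2 without day 1 replicate 4 or 5 or day 3 replicate 1 or 3, at 8.9% to 10.3% of all genes. For the formats it gave 0 to 3 members at day 1 (14% to 39.4%) and 0 to 4 at day 3 (0.638% to 33.5%). Calls of single members were lost in 7 of the 14 leave-outs for Ugt1a6a at day 1 against day 0, in 10 for Ugt3a2 between the formats at day 1 in 9 for Ugt1a7c between the formats at day 3, and, from day 1 to day 3, in 6 for Ugt3a2 and 5 for Ugt1a6a. For Ugt2b38 and Ugt3a1 it was 1 leave-out for each of them between the formats at each day.

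With the replicate number as a block, 0 members passed for day 1 against day 0, where 36.1% of all genes did. The replicate block rests on a shared number only: of 13 pairs of libraries with the same number, 4 had deviations from the group means that correlated over 0.1 (range -0.17 to 0.26), so the numbers were not taken to pair mice. At 12485579 to 20476979 reads on genes, Ugt1a9 and Ugt1a1 had at most 5 counts in any day 0 library. This limits the fold of Ugt1a1, while Ugt1a9 has no fitted value. With the 1915-base length for Ugt1a7c, chosen after seeing the data, its mean level was 119 CPM per kilobase in place of 250.02 at day 0, 103 in place of 216 at day 1 and 102 in place of 214 at day 3. With the 2142-base length for Ugt1a6a, also chosen then, its level was 1.30 in place of 2.91, 0.618 in place of 1.39 and 1.52 in place of 3.42.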
